A study of Homo sapiens with 4 samples.

Results

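The genes described here write, read or remove DNA methylation or hold chromatin silent. They are the DNA methyltransferases DNMT1, DNMT3A and DNMT3B, the hemimethyl-DNA reader UHRF1, the dioxygenases TET1, TET2 and TET3, the histone methyltransferase EZH2, the silencing factor SMCHD1 and the insulator protein CTCF. They were chosen by name, and all 10 were found among the 63856 genes of the count table. Levels were measured by RNA-seq in MCF10A, a non-tumorigenic human breast epithelial line. There were 2 libraries of wild type (WT) cells and 2 libraries of cells with stable HSF1 overexpression, transduced with lentivirus made from the pLVX-Puro plasmid carrying HSF1 cDNA and selected with puromycin (HSF1-pLVX). HSF1 is the main transcription factor of the heat shock response. Per the labels, all cells grew in the same medium with horse serum, insulin, hydrocortisone, EGF and cholera toxin. Libraries of cells with the empty vector were not analysed here, so an effect of HSF1 cannot be told apart from one of the vector, of puromycin or of separate culture.

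In mammalian cells, methyl groups on CpG dinucleotides are copied after each round of replication. UHRF1 binds CpG sites that carry the mark on the old strand only and brings DNMT1 to them. DNMT3A and DNMT3B place methylation on unmethylated sites, and the TET enzymes oxidize 5-methylcytosine as the first step of its removal. EZH2 is the catalytic subunit of Polycomb repressive complex 2 (PRC2), which trimethylates lysine 27 of histone H3. SMCHD1 is an SMC-family protein of the inactive X chromosome and of other silent regions, and CTCF stops loop extrusion by cohesin and insulates neighbouring domains. Transcripts of UHRF1, DNMT1 and EZH2 are known to be most abundant in dividing cells.

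The libraries held between 18688109 and 24184285 counts, of which the 10 genes took 4643 and 4712 in WT cells and 10103 and 7564 in HSF1-pLVX cells. HSF1, the gene that was introduced, had a mean of 195 CPM (counts in every 1000000 after TMM scaling) in WT and 991 in HSF1-pLVX cells, and the counts do not separate the introduced from the endogenous transcript. The change between variants was broad. With edgeR's quasi-likelihood test and an adjusted p of 0.05, 5175 of 15830 genes tested were higher in HSF1-pLVX cells (32.7%) and 5253 were lower (33.2%). At least 2-fold differences within these calls made up 14.9% and 14% of the genes tested. All 11 mammary epithelial markers were tested, and 3 were higher, led by TP63 (log2 fold change 3.48), and 7 lower, led by KRT14 (log2 fold change -3.55). Of 8 markers of luminal hormone-sensing cells, 1 was higher (ESR1, log2 fold change 1.65) and 5 were lower, led by KRT8 (log2 fold change -3.24). Of 8 fibroblast markers, 2 were tested and DCN was higher, with 1 and 3 counts in WT and 94 and 87 in HSF1-pLVX cells, and 4 stayed at 3 counts or fewer in every library. Of 9 blood and endothelial markers, none passed the filter, and 4 stayed at 3 counts or fewer in every library. The summed level of the 11 epithelial markers was 23361.9 to 24387.1 CPM in WT and 12983.4 to 13690.1 in HSF1-pLVX cells. That of the luminal markers was 4885.3 to 4969.3 against 778.2 to 956.2 CPM, that of the fibroblast markers 7.88 to 10.9 against 13.9 to 15.0 CPM, and that of the blood and endothelial markers 1.18 to 1.39 against 0.996 to 1.71 CPM. The part of these markers in the changes of the silencing genes was not tested. In such bulk samples, fewer cells that express a gene and less RNA per cell cannot be told apart. The study calls the libraries biological replicates, but the labels do not say whether they came from separate cultures, so the p-values measure the spread between these libraries.

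Of the 10 silencing genes, 9 passed the filter on low counts. Among these, 5 were higher in HSF1-pLVX cells (UHRF1, EZH2, DNMT1, DNMT3B and SMCHD1) and 2 were lower (TET2 and TET3), against the 32.7% and 33.2% of all genes tested. DNMT3A and CTCF were not called, and TET1 was not tested. With a 2-fold change required as well, 4 were higher and 0 lower, since TET2 and TET3 fell by less than that. Their median log2 fold change was 0.52, beside 0.02 over all genes tested. The highest was the 1.66 of UHRF1 and the lowest the -0.39 of TET2. UHRF1 lay above 93.8% of the genes tested by log2 fold change, EZH2 above 91.5%, DNMT1 above 89.3% and DNMT3B above 86.7%. Both HSF1-pLVX libraries lay above both WT libraries for 42.1% of all genes tested and below them for 41%. A lack of overlap between the variants therefore does not by itself set a gene apart.

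**Figure D1:**
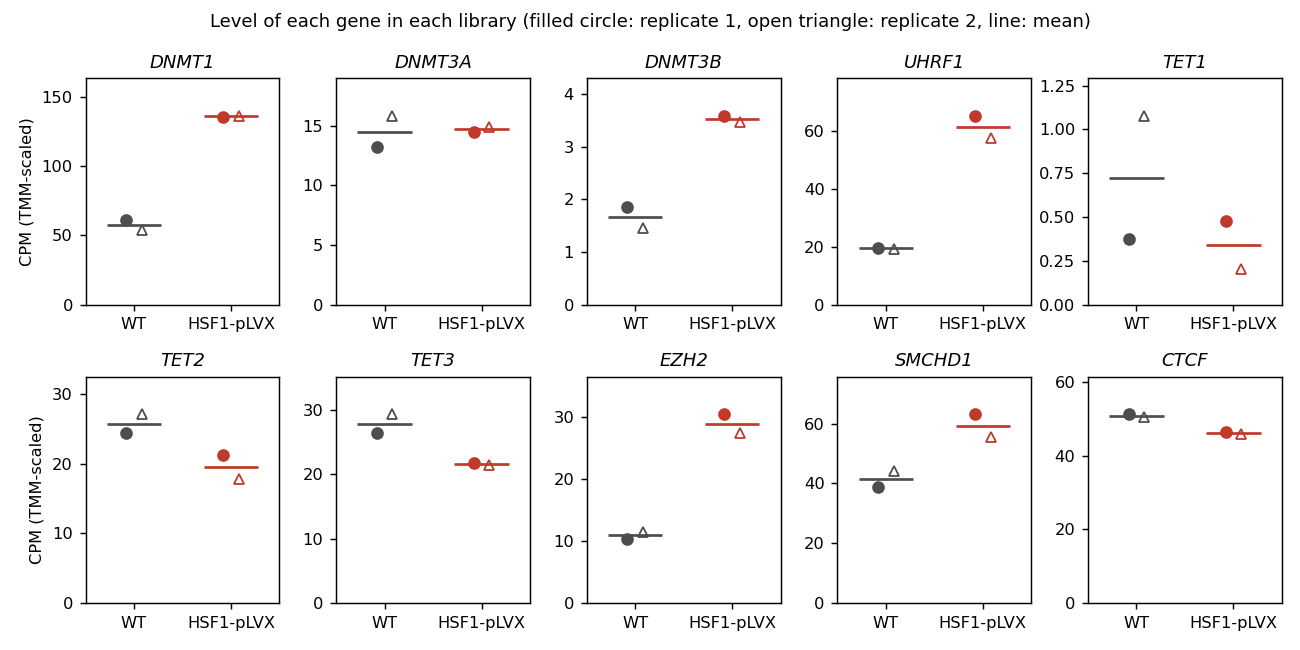
Level of each of the 10 genes in each library, in TMM-scaled CPM on linear axes that start at 0, with replicate 1 as filled circles, replicate 2 as open triangles and the mean of 2 libraries as a line. Both HSF1-pLVX libraries lie above both WT libraries for DNMT1, DNMT3B, UHRF1, EZH2 and SMCHD1 and below them for TET2, TET3 and CTCF, and the variants overlap for DNMT3A and TET1. Of all genes tested, 42.1% lie above and 41% below in this way.

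Promoter sequence was taken for all 10 genes from RefSeq (GRCh38.p14), as the 250 bases before each annotated start, which gave 22 windows. These were searched on both strands for a pair of heat shock element units (GAANNTTC or TTCNNGAA), for words bound by E2F factors (TTTCCCGC, TTTCGCGC, TTTGCCGC or TTTGGCGC), for the CCAAT box (CCAAT) and for the cell cycle homology word TTTGAA. The heat shock element pair was in 0 of the 22 windows and in 11.6% of all 35116 promoter windows of that length. An E2F word was in 2 windows, both of UHRF1, and in 2.79% of all windows. The CCAAT box was in 7 windows, of DNMT3B, EZH2, TET1, TET3 and UHRF1, and in 32% of all windows. TTTGAA was in 2 windows, of CTCF and TET2, and in 13.3% of all. The stretches printed here are those for the 2 genes with the highest log2 fold changes and for the one with the lowest, ending where a counted exon begins, with the words found in capitals and read 5′ to 3′ on the gene's own strand. UHRF1 is at chr19:4909894-4910143 (plus strand), EZH2 at chr7:148884322-148884541 (minus strand) and TET2 at chr4:105145625-105145874 (plus strand).
UHRF1: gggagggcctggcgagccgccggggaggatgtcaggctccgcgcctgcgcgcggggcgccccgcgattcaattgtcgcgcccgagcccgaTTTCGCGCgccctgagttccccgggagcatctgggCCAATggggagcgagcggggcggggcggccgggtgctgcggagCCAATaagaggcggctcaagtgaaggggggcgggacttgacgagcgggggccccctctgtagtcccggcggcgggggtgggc
EZH2: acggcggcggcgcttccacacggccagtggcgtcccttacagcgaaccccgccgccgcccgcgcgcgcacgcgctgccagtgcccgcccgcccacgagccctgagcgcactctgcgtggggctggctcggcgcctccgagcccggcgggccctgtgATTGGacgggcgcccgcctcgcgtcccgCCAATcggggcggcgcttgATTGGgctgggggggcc
TET2: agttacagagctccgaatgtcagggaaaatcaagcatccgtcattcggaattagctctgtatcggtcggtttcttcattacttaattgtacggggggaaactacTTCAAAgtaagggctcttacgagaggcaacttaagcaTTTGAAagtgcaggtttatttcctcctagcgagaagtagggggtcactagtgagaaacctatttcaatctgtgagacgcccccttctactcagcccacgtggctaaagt
The UHRF1 stretch holds 1 E2F word, 2 CCAAT boxes and 32 CpG dinucleotides in 250 bases, and the EZH2 stretch holds 3 CCAAT boxes and 35 CpG in 220 bases. The TET2 stretch holds 2 TTTGAA words and 10 CpG in 250 bases, near the median of 11 CpG over all promoter windows. The single DNMT3B window held 3 CpG, the fewest of the 22, and the single SMCHD1 window held 34. That DNMT3B window (chr20:32779602-32779851) lies inside the counted span of the gene, which starts at 32762385. The windows of UHRF1 also lie inside its counted span, which starts at 4903080, since the first window starts at 4909251. So does the single DNMT1 window (chr19:10194954-10195203, minus strand), as the span of DNMT1 ends at 10231286. Of the bases of that DNMT1 window, 182 were in counted exons. The bases before the first counted exon of DNMT3B, UHRF1 and DNMT1 were therefore not searched. A word in a window is a match of letters, and binding was not measured.

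UHRF1 and DNMT1, which together maintain methylation, both rose. UHRF1 (ENSG00000276043.4, chromosome 19 of hg38, 4903080 to 4962154) was at 19.7 and 19.2 CPM in WT replicates 1 and 2 and at 65.3 and 57.6 CPM in HSF1-pLVX replicates 1 and 2. The variants did not overlap, and the 2 WT libraries lay close together. The level was 3.16-fold higher in HSF1-pLVX cells, which is 1.66 ± 0.0977 on the log2 scale (fitted change ± SE, adjusted p = 2.63e-09, edgeR's quasi-likelihood test). DNMT1 (ENSG00000130816.14, chromosome 19, 10133345 to 10231286) was at 61.3 and 53.7 CPM in WT cells and at 136 CPM in both HSF1-pLVX libraries. The HSF1-pLVX libraries lay close together and above both WT libraries. The level was 2.37-fold higher, or 1.24 ± 0.091 on the log2 scale (adjusted p = 2.60e-08). Of its 9796 counted bases, 69 are shared with the neighbouring S1PR2 on the same strand, which held 75 to 168 counts.
The ratio of DNMT1 to UHRF1, on levels per kilobase of counted length, was 1.63 and 1.47 in WT and 1.09 and 1.24 in HSF1-pLVX cells. This ratio was lower in both HSF1-pLVX libraries than in either WT library. The paralog of UHRF1, UHRF2, rose less than UHRF1, from 38.6 ± 2.70 to 49.6 ± 2.12 CPM (SD, n = 2 each), with a log2 fold change of 0.36 (adjusted p = 0.00265). Per length, UHRF1 made up 49.3% ± 2.25 of the sum of both in WT and 70.5% ± 0.967 in HSF1-pLVX cells (SD, n = 2).

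DNMT3B rose at a low level, while DNMT3A did not pass the test. DNMT3B (ENSG00000088305.18, chromosome 20, 32762385 to 32809356) held 35 and 27 counts in WT and 90 and 69 in HSF1-pLVX cells, which is 1.86 and 1.45 CPM against 3.58 and 3.47 CPM. Exact Poisson intervals at 95%, which cover counting error only, ran from 17.8 to 48.7 counts over the WT libraries and from 53.7 to 111 over the HSF1-pLVX libraries. Neither the libraries nor these intervals overlapped between the variants. The log2 fold change was 1.09 ± 0.254 (SE), the widest error of the 9 genes tested (adjusted p = 0.0017). DNMT3A (ENSG00000119772.16, chromosome 2, 25227855 to 25342590) was at 13.2 and 15.8 CPM in WT and at 14.5 and 14.9 CPM in HSF1-pLVX cells. Both HSF1-pLVX values lay between the WT values. Its log2 fold change was 0.02, with a 95% interval from -0.22 to 0.26 (adjusted p = 0.907), and it was slightly below 0 with DESeq2 or without WT replicate 1.
Per length, DNMT3B made up 26.8% and 19.3% of the sum of both de novo enzymes in WT and 39.2% and 37.6% in HSF1-pLVX cells. DNMT3A therefore stayed the larger share in every library. The sum of the 3 methyltransferases was 7.76 and 7.11 CPM per kilobase in WT and 15.8 and 15.9 in HSF1-pLVX cells, of which DNMT1 held 80.6% and 77.1%, and then 87.5% in both. DNMT3L, the inactive partner of the de novo enzymes, had 0 counts in all 4 libraries, against a floor of 3 counts per library that covers counting error only.

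The 3 TET genes lay below or within the WT range. TET2 (ENSG00000168769.13, chromosome 4, 105145875 to 105279816) was at 24.3 and 27.1 CPM in WT and at 21.2 and 17.9 CPM in HSF1-pLVX cells, a log2 fold change of -0.39 ± 0.112 (SE, adjusted p = 0.00683). TET3 (ENSG00000187605.15, chromosome 2, 73986404 to 74108176) was at 26.4 and 29.3 CPM in WT and at 21.7 and 21.5 CPM in HSF1-pLVX cells. Its log2 fold change was -0.37 ± 0.0998 (SE, adjusted p = 0.00499). For both genes the variants did not overlap, with an order that 41% of all genes tested held, and the falls were small. Without HSF1-pLVX replicate 2, neither passed the test, with adjusted p-values of 0.13 for TET2 and 0.0725 for TET3.
TET1 (ENSG00000138336.8, chromosome 10, 68560656 to 68694482) held 7 and 20 counts in WT and 12 and 4 in HSF1-pLVX cells. Exact Poisson intervals at 95% ran from 2.81 to 14.4, 12.2 to 30.9, 6.20 to 21.0 and 1.09 to 10.2 counts for these libraries. The variants overlapped, and TET1 did not pass the filter on low counts. Without the filter its log2 fold change was -1.03 (adjusted p = 0.084). Without WT replicate 1, the lower of the WT libraries, it passed the filter and was called, at -1.58 (adjusted p = 0.0143).
The summed TET level per length was 3.67 and 4.15 CPM per kilobase in WT and 3.1 and 2.86 in HSF1-pLVX cells. TET3 made up 58.1% ± 0.738 of the sum in WT and 59.1% ± 3.11 in HSF1-pLVX cells (SD, n = 2), and the HSF1-pLVX libraries, at 56.9% and 61.3%, lay on both sides of the WT libraries. The sum of the methyltransferases was 2.12 and 1.71 times that of the TET genes in WT and 5.10 and 5.56 times in HSF1-pLVX cells. The libraries of the variants do not overlap in this ratio. With 2 libraries a variant, the smallest p of an exact permutation test is 0.333, so none is given.

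**Figure D2:**
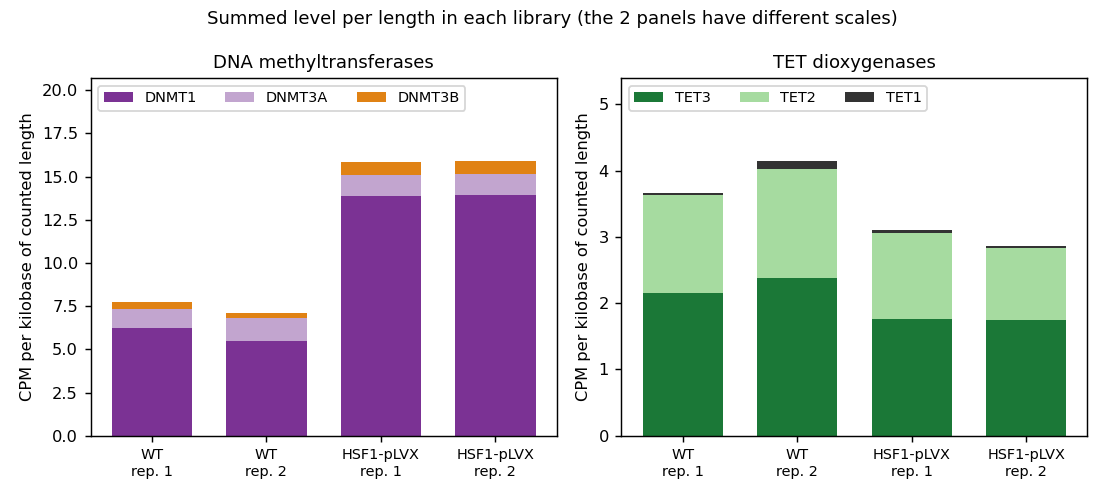
Summed levels per library of the DNA methyltransferases (left) and of the TET genes (right), in CPM per kilobase of counted length, stacked by gene on axes that start at 0 and differ between the panels. DNMT1 fills most of the left bars, which are 7.76 and 7.11 in WT and 15.8 and 15.9 in HSF1-pLVX cells, while the right bars are 3.67 and 4.15 against 3.1 and 2.86.

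EZH2 (ENSG00000106462.10, chromosome 7, 148807383 to 148884321) rose from 10.3 and 11.5 CPM in WT to 30.4 and 27.4 CPM in HSF1-pLVX cells. Every HSF1-pLVX library lay above every WT library, as held for 42.1% of all genes tested. The level was 2.65-fold higher, or 1.41 ± 0.114 on the log2 scale (SE, adjusted p = 7.35e-08). EZH1, the alternative catalytic subunit, was at 23.1 and 25.5 CPM in WT and at 24.3 and 22.7 CPM in HSF1-pLVX cells, with overlapping variants, and was not called (adjusted p = 0.699). Per length, EZH2 made up 40.9% of the EZH1 and EZH2 sum in WT replicate 1 and 41.0% in WT replicate 2. In HSF1-pLVX cells it made up 65.9% and 65.1%, so the more abundant of the paralogs differed between the variants.
Of the 12 other PRC2 genes listed, 10 were tested, and 5 were higher and 1 was lower, beside 32.7% and 33.2% of all genes tested. The core subunits EED, SUZ12 and RBBP4 rose, with log2 fold changes of 0.44, 0.36 and 0.61, and RBBP7 had one of -0.03 that was not called. The largest rise was that of PHF19, an accessory subunit that helps bring PRC2 to chromatin, from 12.6 ± 0.931 to 44.0 ± 1.47 CPM (log2 fold change 1.80), and the fall was that of LCOR (log2 fold change -0.33), which was not called without HSF1-pLVX replicate 2. Per length, EZH2 was at 0.667 and 0.644 times SUZ12 in WT and at 1.31 and 1.40 times in HSF1-pLVX cells. Against EED the ratio was 0.829 and 0.900 in WT and 1.69 in both HSF1-pLVX libraries. The H3K27 demethylases KDM6A and KDM6B were not called. Among 16 tested of 19 PRC1 genes, 3 were higher and 4 lower, both smaller shares than over all genes tested, led by PHC2 (log2 fold change 0.86) and CBX6 (log2 fold change -1.10). The number lower was 2 with library size only, with DESeq2, without WT replicate 2 and without HSF1-pLVX replicate 2.

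SMCHD1 (ENSG00000101596.14, chromosome 18, 2655738 to 2805017) rose to a smaller extent. It was at 38.7 and 44.3 CPM in WT and at 63.1 and 55.7 CPM in HSF1-pLVX cells, a 1.43-fold higher level. The variants did not overlap, and in both of them the libraries differed by several CPM. On the log2 scale this was 0.52 ± 0.097 (SE, adjusted p = 0.000288). LRIF1, a partner of SMCHD1 at silent chromatin, was at 18.8 ± 0.553 and 16.1 ± 1.37 CPM (SD, n = 2) and was not called (adjusted p = 0.105). Of 16 genes of H3K9 methylation and heterochromatin, 15 were tested, of which 7 were higher and 1 lower, beside the same 32.7% and 33.2%. SUV39H1, a methyltransferase of H3K9, rose the most (log2 fold change 1.18), and CBX1, which encodes the heterochromatin protein HP1 beta, fell (log2 fold change -0.47). EHMT2 and RING1, which most cells use, had 0 counts in every library, so a count of 0 in this table need not mean that a gene was silent.

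CTCF (ENSG00000102974.14, chromosome 16, 67562407 to 67639183) was at 51.1 and 50.3 CPM in WT and at 46.4 and 45.9 CPM in HSF1-pLVX cells. Both HSF1-pLVX values were lower than both WT values, as held for 41% of all genes tested (42.1% held the opposite order). The log2 fold change was -0.14, with a 95% interval from -0.30 to 0.03, and it was not called (adjusted p = 0.164). Its germline paralog CTCFL had 0 counts in every library. Among the cohesin and insulator partners, 8 of 15 tested were higher and 1 was lower, beside 32.7% and 33.2% of all genes tested. The cohesin subunits SMC3 and RAD21 rose, with log2 fold changes of 0.81 and 0.39. ESCO2, the acetyltransferase that locks cohesin in S phase, rose from 2.28 ± 0.433 to 5.57 ± 1.19 CPM, and the transcription factor ZNF143 fell (log2 fold change -0.57).

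**Figure D3:**
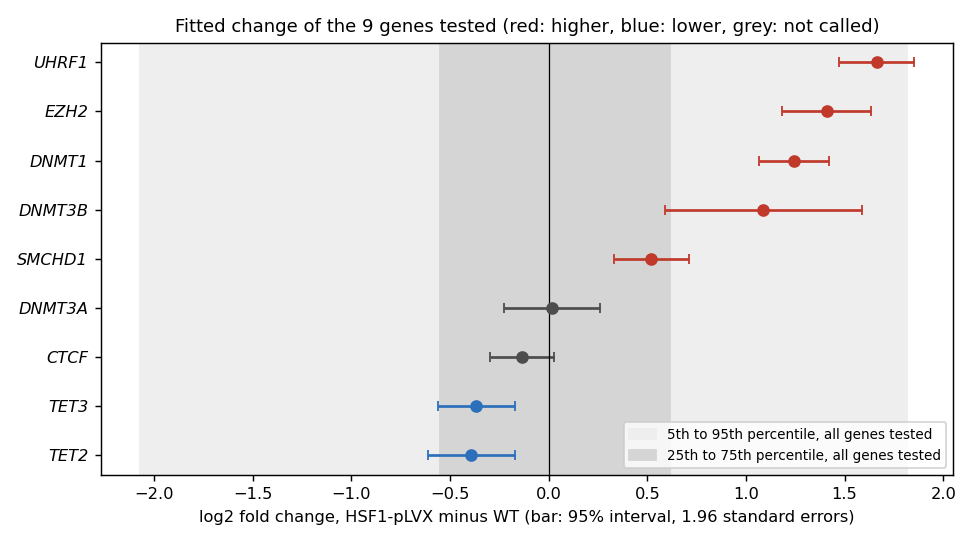
Fitted log2 fold change (HSF1-pLVX minus WT) of the 9 genes tested, with 95% intervals (normal multiplier of the standard error). Grey bands mark the 5th to 95th and the 25th to 75th percentile of all 15830 genes tested. UHRF1, EZH2, DNMT1 and DNMT3B lie above the 75th percentile (0.61), while SMCHD1, DNMT3A, CTCF, TET3 and TET2 lie within the inner band.

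On the scale of CPM per kilobase of counted length, the order of the genes differed between the variants. In WT cells CTCF was the highest at 11.8 ± 0.135, followed by DNMT1 at 5.87 ± 0.553, UHRF1 at 3.78 ± 0.0756 and SMCHD1 at 3.40 ± 0.325 (SD, n = 2 each). EZH2 and TET3 came next, at 2.41 ± 0.177 and 2.27 ± 0.168, and their libraries overlapped. TET2, DNMT3A, DNMT3B and TET1 followed, at 1.56, 1.21, 0.358 and 0.0780.
In HSF1-pLVX cells DNMT1 was the highest at 13.9 ± 0.0342, ahead of UHRF1 at 11.9 ± 1.06, CTCF at 10.7 ± 0.0966, EZH2 at 6.39 ± 0.470 and SMCHD1 at 4.86 ± 0.430 (SD, n = 2 each). TET3 was at 1.76 ± 0.0101, DNMT3A at 1.22 ± 0.0289 and TET2 at 1.19 ± 0.143, the last pair with overlapping libraries, and DNMT3B and TET1 were again the lowest, at 0.762 and 0.0366. The counted length joins the exons of all annotated transcripts of a gene, so these levels depend on which isoforms the cells used.

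Other genes of the DNA methylation machinery were taken from fixed lists. Of 9 tested partners of the methyltransferases, 6 were higher and 0 lower in edgeR's quasi-likelihood test, beside 32.7% and 33.2% of all genes tested. With limma's voom 1 was lower, and the number lower also changed without WT replicate 2. The partner with the lowest value, NSD1, named after its value was seen, had a log2 fold change of -0.20 (unadjusted p = 0.0435, adjusted p = 0.0643, edgeR's quasi-likelihood test). Their median log2 fold change was 1.45, against 0.02 over all genes tested. HELLS and CDCA7, which together form a nucleosome remodeller needed for DNA methylation, had the greatest rises of the list. CDCA7 was at 2.66 and 2.48 CPM in WT and at 35.3 and 36.3 CPM in HSF1-pLVX cells, a 13.9-fold higher level (adjusted p = 2.18e-11). HELLS was at 7.67 and 8.83 CPM in WT and at 49.3 and 45.0 CPM in HSF1-pLVX cells, 5.72-fold higher (adjusted p = 1.85e-10). PCNA, the replication clamp that binds DNMT1, rose from 56.6 ± 1.90 to 155 ± 1.68 CPM (SD, n = 2).
Among proteins that read methylated CpG, MBD2 rose (log2 fold change 0.44) and ZBTB38 fell from 176 ± 9.86 to 51.8 ± 6.37 CPM (log2 fold change -1.76). Genes tied to demethylation gave 4 higher and 7 lower of 13 tested, beside 32.7% and 33.2% of all genes tested. Fewer of them were lower when HSF1-pLVX replicate 2 was left out. TDG, the glycosylase that removes oxidized 5-methylcytosine, was among the lower genes, from 29.3 ± 0.629 to 24.1 ± 3.27 CPM (adjusted p = 0.0339). GADD45B fell most (log2 fold change -1.76), and the repair endonuclease APEX1 rose most (log2 fold change 1.24). In the NuRD and histone deacetylase list, 5 of 10 were higher and 3 lower, beside 32.7% and 33.2% of all genes tested, with MTA1 at the top (log2 fold change 1.03) and CHD3 at the bottom (log2 fold change -0.46). Without HSF1-pLVX replicate 2 the number higher was 2.

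**Figure D4:**
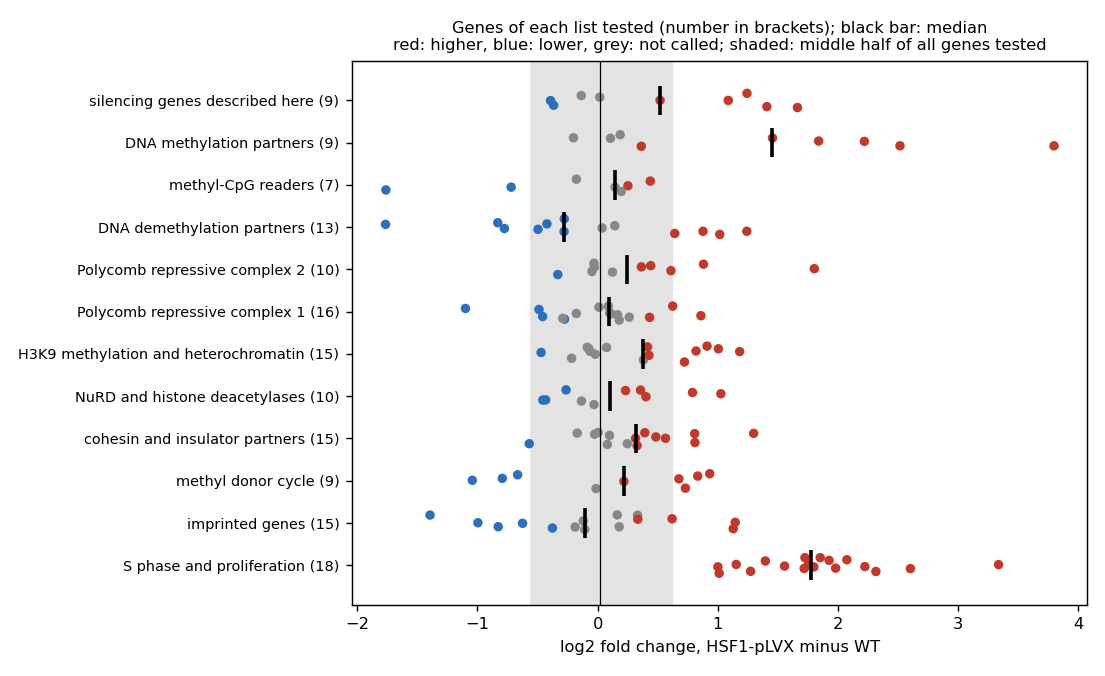
Log2 fold change (HSF1-pLVX minus WT) of every tested gene of 12 lists, red where higher, blue where lower and grey where not called, with each list's median as a black bar and the 25th to 75th percentile of all genes tested shaded. The S phase and proliferation genes and the partners of DNA methylation have the highest medians (1.77 and 1.45), and the demethylation partners the lowest (-0.28). The lists were chosen with earlier results of these data known.

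Genes of S phase and proliferation were higher in HSF1-pLVX cells, as were UHRF1, DNMT1 and EZH2. The list of S phase and proliferation genes was chosen with earlier results of these data known. The study had reported DNA replication as enriched among its up-regulated genes, so the counts here only describe the list. All 18 listed genes were tested and all 18 were higher, each by at least 2-fold, beside 14.9% of all genes tested. Their rises reached 3.34 on the log2 scale, with a median of 1.77. Their summed level was 594.6 and 490.0 CPM in WT and 1889.4 and 1783.3 CPM in HSF1-pLVX cells. MCM2, a subunit of the replicative helicase, was at 38.7 and 30.5 CPM in WT and at 116 and 117 CPM in HSF1-pLVX cells. MKI67, the gene of the proliferation antigen Ki-67, was at 61.3 and 40.3 CPM and at 218 and 168 CPM, and CDT1, a licensing factor, rose 10.1-fold.
Per length, the ratio of UHRF1 to MCM2 was 0.486 and 0.599 in WT and 0.536 and 0.470 in HSF1-pLVX cells, so the variants overlapped. The ratio of EZH2 to MCM2 was 0.290 and 0.408 in WT and 0.284 and 0.255 in HSF1-pLVX cells. The HSF1-pLVX values of this ratio lay just below the lower WT value. For DNMT1 the ratio to MCM2 was 0.793 and 0.881 in WT and 0.586 and 0.585 in HSF1-pLVX cells, lower values although DNMT1 itself was higher. In crystal violet staining, the study found no effect of HSF1 overexpression on the growth of MCF10A cells. The part of cell proliferation in the changes of UHRF1, DNMT1, EZH2 and DNMT3B was not tested.

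**Figure D5:**
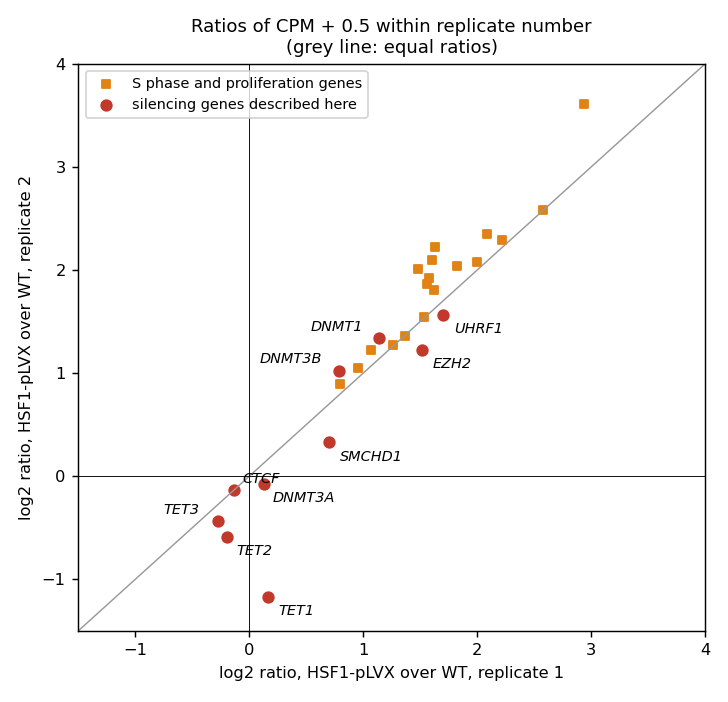
Log2 ratio of HSF1-pLVX over WT within replicate 1 (x axis) and within replicate 2 (y axis), on CPM plus 0.5, for the 10 silencing genes (red circles, named) and 18 S phase and proliferation genes (orange squares), with equal ratios on the grey line. UHRF1 (1.70 and 1.56), EZH2 (1.51 and 1.22) and DNMT1 (1.14 and 1.34) lie among the orange squares, and TET1, with few counts, lies off the line (0.16 and -1.17).

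The study took genes as changed when the signal ratio exceeded 2.0, or was under 0.50, in its replicates. Here the ratio was formed within each replicate number. Over the 22321 rows of the deposited table, this criterion was passed upwards by 5% and downwards by 6.42%. Those rows include genes with 0 counts in every library, such as CTCFL, so these shares have another base than the 15830 genes tested. CTCFL stands at 3.12 in every library on these log2-like values, so ratios at low counts can be understated. Among the 10 silencing genes, 3 passed it upwards and 0 downwards. The ratios in replicates 1 and 2 were 3.12 and 2.90 for UHRF1, 2.71 and 2.28 for EZH2 and 2.13 and 2.50 for DNMT1. DNMT3B, with 1.62 and 1.91, stayed under 2.0 on these values. SMCHD1 had ratios of 1.57 and 1.24, and CTCF had 0.881 and 0.906.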

How the data were processed

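RNA-seq libraries of MCF10A, 2 of WT and 2 of HSF1-pLVX cells, were grouped by their titles. The authors depleted ribosomal RNA, aligned paired-end reads to hg38 with HISAT2 2.0.5, processed them with SAMtools 1.13 and deposited raw counts per gene from featureCounts 1.6.5. The strand, overlap and multi-mapping settings are not given in the sources used here. The authors also deposited log2-like values normalized with DESeq2 1.32.0, which served only for the ratio criterion and as an alternative.

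A table of Ensembl identifiers gave symbols to 57392 of 63856 rows, and the identifier chose each row. The test was edgeR's (4.0.16, under R 4.3.3) quasi-likelihood test (TMM, filterByExpr, no block, Benjamini-Hochberg adjustment over 15830 genes, called at 0.05). On simulated counts with 200 changed genes, it recovered a mean of 51.6% of log2 changes of 0.5 and 82.2% of those of 1. A mean of 3.22% of its calls there were false. Far more genes were called in the real data, so these shares need not hold for them. The standard error is the log2 fold change divided by the square root of F. The fit has no block because nothing says that a replicate number marks a shared culture, and a block would leave 1 residual degree of freedom. The correlation of same-numbered deviations was -0.0147. A chi-square per degree of freedom of 6.62 (WT) and 8.04 (HSF1-pLVX) showed that replicates differed by more than sampling noise. Library totals of 18688109 to 24184285 counts set the precision. Levels between genes were compared in CPM per kilobase.

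The genes and lists were chosen with earlier results of these data known. All 10 genes are named, as are partners fixed by name (1 of which is not reported here) and, from each list, the called gene with the greatest rise and fall at a mean of at least 1 CPM. KDM6A, KDM6B, EHMT2 and RING1, and SYCP3, GNAS, H19, MEG3, PEG3 and MAT2A in the closing section, were named after their values were seen. Alternatives covered normalization, filter, test (DESeq2 1.42.0, limma 3.58.1), the replicate block, the call, length scaling and each library left out.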

Additional observations from a re-analysis of the deposited data

How the results depend on the processing

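The calls of UHRF1, EZH2, DNMT1, DNMT3B and SMCHD1 as higher held under all 6 alternative fits to the 4 libraries and with each library left out, and the largest adjusted p among them was the 0.0377 of DNMT3B without HSF1-pLVX replicate 2. The number of silencing genes called lower was 0 with a 2-fold change required. The study's ratio criterion gave 3 higher and 0 lower. Leaving out 1 library at a time, the number lower was between 0 and 3: without HSF1-pLVX replicate 2 neither TET2 nor TET3 was called, and without WT replicate 1 TET1 passed the filter and was called (log2 fold change -1.58). Over these 4 fits the log2 fold change was between -0.52 and -0.27 for TET2, between -0.43 and -0.31 for TET3 and between -0.093 and 0.14 for DNMT3A. That of DNMT3A was -0.0089 with DESeq2's Wald test and -0.0042 as the difference of the deposited normalized values, and that of DNMT3B on the latter was 0.82. With the replicate block 5 silencing genes were higher and 2 lower, as without it, and 10192 of 10428 calls over all genes were shared. A crossed pairing, added after seeing the data because the same-numbered correlation was -0.115 over 9672 genes above 8 CPM, made 10916 calls over all genes. Of 180 counts over the other lists in alternative fits to the 4 libraries, 10 moved by more than 1.5 times, and of 120 with 1 library left out, 13 did. Without length scaling, 13 of 20 ranks of levels moved. Depth limits TET1 most, with at most 20 counts in a library.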

Other observations

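Genes that depend on silencing were followed as well. Imprinted genes as a class are expressed from 1 parental copy set by DNA methylation, which need not hold for each listed gene in these cells. The counts do not separate the parental copies. Of 28 listed imprinted genes, 15 were tested, of which 4 were higher and 5 lower, beside 32.7% and 33.2% of all genes tested. Their median log2 fold change was -0.11. Over the alternatives 2 to 7 were higher and 3 to 5 lower, with the 7 under library size as the only normalization and the 2 under DESeq2 and without HSF1-pLVX replicate 1. NNAT had the greatest rise at a mean of at least 1 CPM, from 1.15 ± 0.273 to 2.53 ± 0.589 CPM (SD, n = 2 each), on 18 to 74 counts per library. IGF2R fell from 440.1 ± 8.93 to 220.6 ± 10.9 CPM, and GNAS fell from 980.8 to 636.1 CPM. A further 10 imprinted genes, H19, MEG3 and PEG3 among them, stayed at or under 3 counts in every library. Of 26 germline genes that DNA methylation is known to hold silent in somatic cells, none passed the filter on low counts, and 25 had at most 3 counts in each of the 4 libraries. How reads of near-identical copies, such as those of the MAGEA and SSX families, were counted is not given in the sources used here, and low counts of such genes are uncertain. The exception was SYCP3, with 4 and 1 counts in WT and 14 and 4 in HSF1-pLVX cells. The summed level of the 26 genes was 0.639 and 0.269 CPM in WT and 0.836 and 0.453 CPM in HSF1-pLVX cells, with overlapping variants.

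The methyl donor S-adenosylmethionine is made and recycled by enzymes of the methionine cycle. HSF1-pLVX cells had 5 of 9 tested genes listed with that cycle higher and 3 lower, beside 32.7% and 33.2% of all genes tested. The number higher was 4 with RLE size factors as the normalization, without the filter on low counts, with DESeq2 and with the replicate block. AHCY, which clears the by-product S-adenosylhomocysteine, rose from 141 ± 13.4 to 270.1 ± 11.7 CPM (log2 fold change 0.93), and MAT2A, which makes S-adenosylmethionine, rose from 150.8 to 268.6 CPM (log2 fold change 0.83). AHCYL2, an AHCY-like gene whose activity in the cycle these data do not show, fell (log2 fold change -1.04). DNA methylation itself was not measured in these libraries.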
